A study of Sus scrofa with 11 samples.

Results

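Small leucine-rich proteoglycans (SLRPs) are secreted matrix proteins with a core of leucine-rich repeats, and 10 of their genes were examined: DCN, BGN, LUM, FMOD, OGN, ASPN, PRELP, OMD, PODN and EPYC. The genes were picked out by symbol, with earlier results of these data known. Each symbol matched 1 gene, and they are 10 of the 30376 genes with deposited values. Bulk RNA sequencing covered 11 full-thickness dorsal skin wounds of Yucatan minipigs (Sus scrofa), all sampled on day 10 after wounding, with 1 library per wound. The 7 diabetic wounds came from 1 female minipig that received streptozotocin, a toxin of pancreatic beta cells, intravenously at 6 months of age. That animal was given insulin until a week before wounding and was wounded 60 days after induction. The 4 non-diabetic wounds came from 1 female minipig that received no streptozotocin, with the same surgery, Tegaderm dressing and sampling, and whose age was not given in the sources used here. Because each group was 1 animal, diabetes and the individual animal cannot be told apart, and every p-value below covers only how much the wounds of an animal vary among themselves.

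SLRPs bind collagen fibrils and set how thick the fibrils grow and how they are spaced, and several also hold growth factors such as transforming growth factor beta in the matrix. Most carry glycosaminoglycan side chains, chondroitin or dermatan sulfate on decorin and biglycan and keratan sulfate on lumican and fibromodulin. In skin they are made mainly by dermal fibroblasts, and decorin and lumican are among the most abundant proteoglycans of the dermis. During repair they are laid down with the collagens of granulation tissue.

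The genes lie in 3 small clusters and at 2 lone positions on the Sscrofa11.1 build. DCN (chr5:91678601-91713925, plus strand), LUM (chr5:91748871-91756381, plus strand) and EPYC (chr5:91837672-91877779, plus strand) form one cluster with the related gene KERA between LUM and EPYC. OGN (chr3:42116521-42135940), OMD (chr3:42142603-42155032) and ASPN (chr3:42165553-42192902) sit head to tail on the minus strand, followed by ECM2, with gaps of 6.66 to 12.3 kb between neighbours. FMOD (chr9:64062995-64073853, minus strand) and PRELP (chr9:64190978-64207008, plus strand) are 117 kb apart, and the related gene OPTC follows PRELP after 4.47 kb. BGN (chrX:124282048-124295450, plus strand) and PODN (chr6:159155251-159179456, minus strand) have no relative of the family beside them. The annotated proteins run from 298 residues in OGN to 422 in OMD, apart from PODN with 612.

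The 250 bases before the annotated start of 3 genes are given 5′ to 3′ on the strand of the gene, because LUM was among the most abundant genes, and FMOD and PRELP had the largest difference between groups that depended on the library name (described further on). Capitals mark a match to 1 of the 4 motifs searched.
LUM: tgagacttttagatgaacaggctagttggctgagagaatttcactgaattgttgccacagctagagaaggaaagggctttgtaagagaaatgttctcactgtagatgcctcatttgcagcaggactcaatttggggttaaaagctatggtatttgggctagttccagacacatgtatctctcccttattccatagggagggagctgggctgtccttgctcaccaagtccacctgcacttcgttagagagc
FMOD: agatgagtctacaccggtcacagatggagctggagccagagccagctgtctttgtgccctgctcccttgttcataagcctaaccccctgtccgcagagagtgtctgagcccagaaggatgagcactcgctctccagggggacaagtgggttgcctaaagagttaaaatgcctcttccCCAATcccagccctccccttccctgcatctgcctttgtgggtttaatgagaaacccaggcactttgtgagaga
PRELP: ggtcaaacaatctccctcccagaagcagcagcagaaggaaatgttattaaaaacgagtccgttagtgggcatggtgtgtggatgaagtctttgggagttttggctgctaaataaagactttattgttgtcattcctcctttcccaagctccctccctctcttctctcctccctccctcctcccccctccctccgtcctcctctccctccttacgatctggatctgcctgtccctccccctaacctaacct
The LUM stretch is chr5:91748621-91748870, the FMOD stretch chr9:64073854-64074103 and the PRELP stretch chr9:64190728-64190977, all read from the RefSeq assembly Sscrofa11.1. They held 46.0%, 54.8% and 51.6% G and C, against a median of 57.2% over 20664 promoters of that length. The motifs were TATAAA (a core promoter element), CCAAT (bound by NF-Y), GGGCGG (bound by Sp1) and TGACTCA (bound by AP-1), each searched on both strands. FMOD had a CCAAT match 73 bases before its start, and the LUM and PRELP windows had no match. Over the 9 genes other than DCN, TATAAA was found in 2 (ASPN and OMD), CCAAT in 2 (FMOD and ASPN), GGGCGG in 1 (BGN) and TGACTCA in 0, and no match overlapped another. The shares of all 20664 promoters with these motifs were 10.4%, 32%, 44.4% and 3.04%.

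Between 28314785 and 40168372 reads per library fell on genes, so 1 read on a gene of 2 kb was worth 0.0112 to 0.0194 FPKM (fragments per kilobase of gene, scaled to library size). An FPKM is a level per length, so a comparison of levels between genes rests on the gene lengths used. Diabetic replicate 4 and non-diabetic replicate 1 stood apart from the other libraries on the first principal component, which held 44.5% of the variance of all tested genes, and had the lowest summed keratinocyte markers (62.1 and 353 FPKM, against 2143 to 7422 in the other 9). Of the 16 keratinocyte markers listed 14 were found and none was at 0 in any wound, and the sums ran from 62.1 to 7422 FPKM in diabetic and from 353 to 3852 FPKM in non-diabetic wounds. All 12 fibroblast markers were found and none was at 0, with sums from 10060 to 32980 FPKM in diabetic and 20100 to 40000 FPKM in non-diabetic wounds. The list holds COL1A1 and COL1A2, at 4615 and 5014 FPKM in diabetic replicate 2, where the sum was 10060 FPKM. These sums are thus mostly type I collagen transcripts. Diabetic replicate 3 had a summed level of skeletal muscle markers of 1990 FPKM, against 6.20 to 10.6 FPKM in the other 10 wounds, where MYH1 and MYH2 were at 0.

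Some of the SLRP genes were abundant, while PRELP, OMD and PODN ranked only 2292nd, 3595th and 5347th by mean FPKM. DCN, at a mean of 1869 FPKM, ranked 21st and LUM, at 1795 FPKM, ranked 23rd of all genes, behind collagen genes such as COL3A1 and COL1A1. The 10 genes together reached 3156 to 7191 FPKM in diabetic and 4440 to 7488 FPKM in non-diabetic wounds, or 0.844% to 1.78% of all FPKM in a library. The means of these sums were 5301 ± 1470 FPKM (SD, n = 7) and 5454 ± 1403 FPKM (SD, n = 4), so the groups differed by less than the spread between wounds. Of this sum DCN made up 33.6% to 37.1%, LUM 30.2% to 37.0%, ASPN 9.62% to 13.8%, BGN 8.51% to 16.9%, FMOD 3.05% to 6.69% and PRELP 0.138% to 0.667%, so that the shares of DCN and LUM varied less between wounds, in relation to their size, than those of BGN, FMOD and PRELP.

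In order of mean level the genes were DCN, LUM, BGN, ASPN, FMOD, OGN, PRELP, OMD, PODN and EPYC. DCN was above LUM in 8 of 11 wounds, BGN above ASPN in 6 of 11, PRELP above OMD in 7 of 11 and OMD above PODN in 9 of 11, so these neighbours were not separated in every wound. LUM was above BGN, ASPN above FMOD, FMOD above OGN, OGN above PRELP and PODN above EPYC in 11 of 11 wounds. In reads, LUM was above DCN in every wound. Their order by FPKM thus rests on the gene lengths used, 1484 bases for DCN and 1939 for LUM.

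No SLRP gene was called between diabetic and non-diabetic wounds. A call needed an adjusted p below 0.05 together with a log2 fold change beyond 0.5 in either direction, from limma on log2(FPKM + 0.5) with Benjamini-Hochberg adjustment over all 13956 genes that reached an FPKM of 0.5 in at least 4 libraries. Of the 10 genes, 9 passed this filter and 0 of 9 were called, against a background of 3% of all tested genes (188 or 1.35% higher, and 231 or 1.66% lower). At an unadjusted p under 0.05 the count was also 0 of 9, against 18.4% of all tested genes, and limma's voom on recovered reads called 0 of 9 as well. The groups overlapped for 9 of 9, whereas they did not overlap for 5.65% of tested genes. The median log2 fold change over the 9 genes was 0.04, against 0.01 over all tested genes, and 5 of the 9 estimates were above 0. In bulk tissue fewer cells of a type and less RNA per cell cannot be told apart. Without diabetic replicate 4 and non-diabetic replicate 1 the count stayed at 0 of 9 (background 1.52%).

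**Figure D1:**
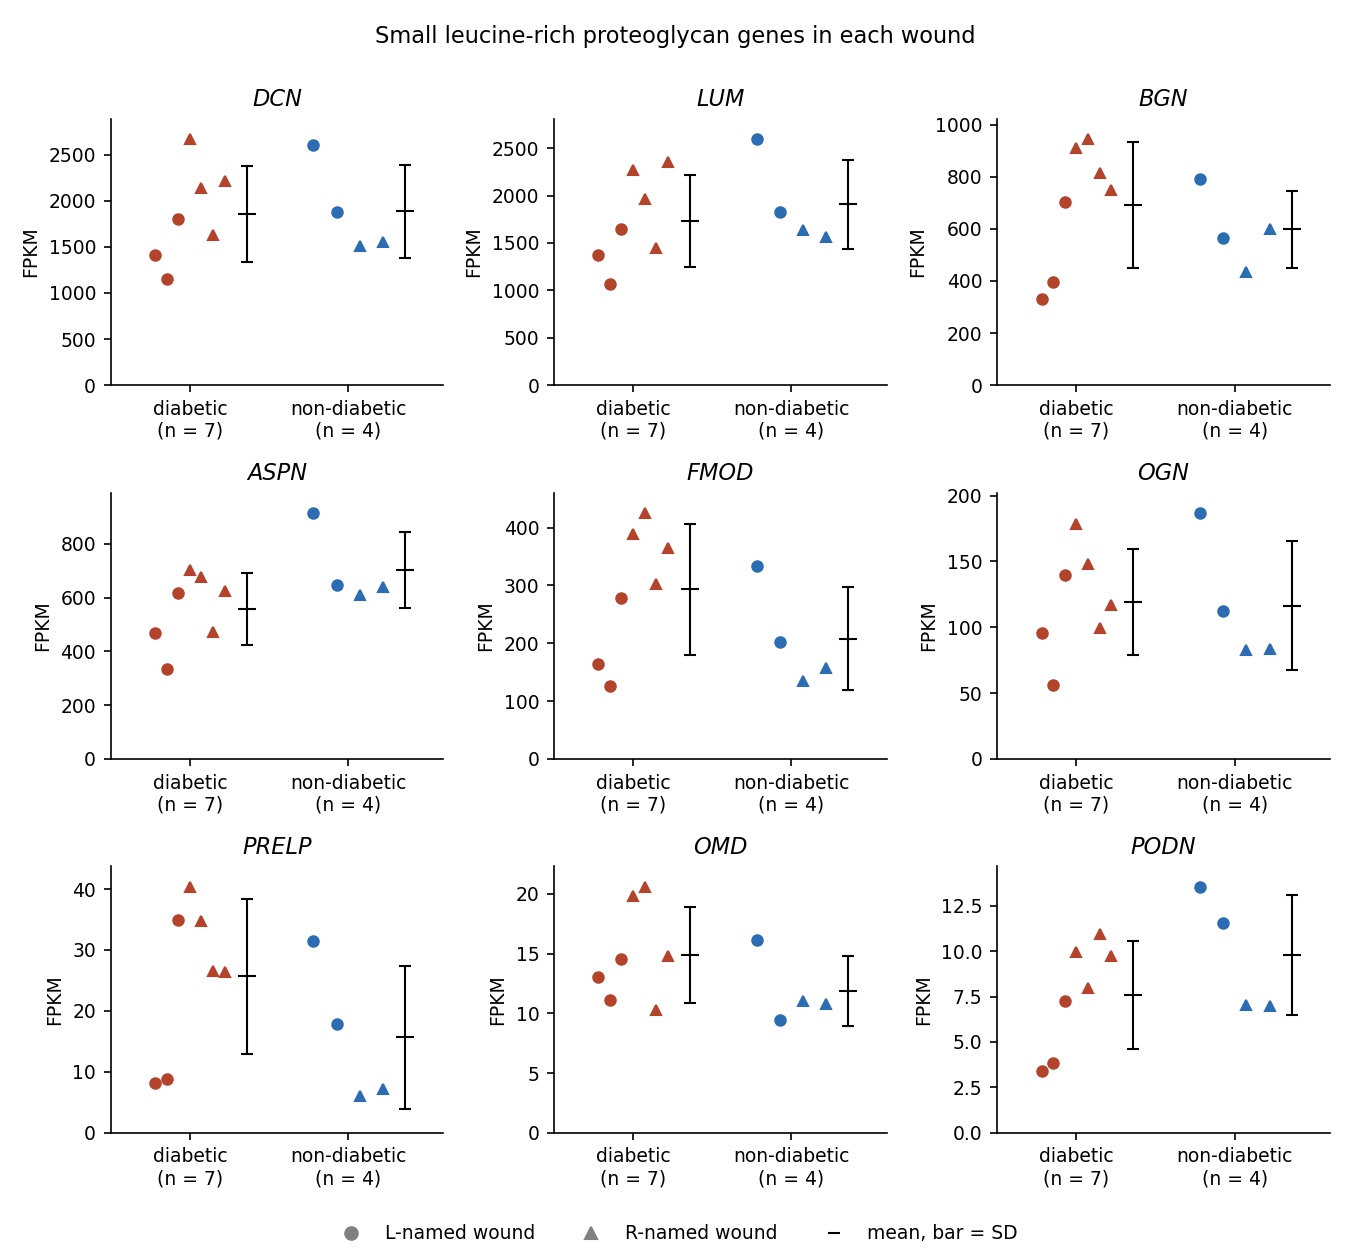
FPKM (vertical axes, linear and starting at 0) of the 9 tested SLRP genes in each of 7 diabetic and 4 non-diabetic wounds, with circles for L-named and triangles for R-named libraries. Horizontal marks with bars are the mean and SD of each group. The groups overlap in every panel, with DCN between 1154 and 2668 FPKM and PODN between 3.41 and 13.5 FPKM.

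Decorin, biglycan and asporin belong to class I. Decorin limits the sideways fusion of collagen fibrils and binds transforming growth factor beta. DCN ranged from 1154 to 2668 FPKM with a median of 1805 in diabetic wounds, and stood at 2605, 1878, 1512 and 1551 FPKM in the 4 non-diabetic wounds. The lowest wound (diabetic replicate 2) and the highest (diabetic replicate 4) were both diabetic, and all 4 non-diabetic wounds fell between them. The means were 1859.5 ± 519 FPKM (SD, n = 7) in the diabetic and 1886 ± 506 (SD, n = 4) in the non-diabetic group. The log2 fold change was -0.03 (SE 0.23, 95% interval -0.54 to 0.47), with an adjusted p of 0.957 by limma. The unadjusted p was 0.894 by the two-sided exact permutation test.

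Biglycan, the closest relative of decorin, is also released as a soluble signal to Toll-like receptors when matrix is damaged. BGN ranged from 329 to 944 FPKM with a median of 751 in diabetic wounds and was 792, 564, 435 and 598 FPKM in non-diabetic wounds. Diabetic replicates 1 and 2 were below every non-diabetic wound, and diabetic replicates 4, 5 and 6 were above every one. On the log2 scale the difference was 0.15 (SE 0.30, 95% interval -0.51 to 0.81), with an adjusted p of 0.844 by limma.

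Asporin carries a run of aspartate in place of a glycosaminoglycan attachment site and binds collagen and growth factors. ASPN ranged from 335 to 704 FPKM with a median of 618 in diabetic wounds and was 915, 648, 609 and 638 FPKM in non-diabetic wounds. The non-diabetic replicate 1 was the highest of all wounds, and diabetic replicates 1, 2 and 6 lay below the non-diabetic range. The estimate was -0.35 (SE 0.20, 95% interval -0.80 to 0.09) on the log2 scale, with an adjusted p of 0.394 by limma. Of the 9 genes it had the smallest unadjusted p, at 0.109 by limma.

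Lumican, fibromodulin, PRELP and osteomodulin are class II members. Lumican keeps fibrils thin and evenly spaced, as in the cornea, and is plentiful in dermis. LUM ranged from 1064 to 2354 FPKM with a median of 1648 in diabetic wounds and was 2595, 1829, 1641 and 1562 FPKM in non-diabetic wounds. Only diabetic replicates 1, 2 and 6 were below all 4 non-diabetic wounds, and non-diabetic replicate 1 was above all others. This gave a log2 fold change of -0.16 (SE 0.23, 95% interval -0.66 to 0.34) and an adjusted p of 0.771 by limma.

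Fibromodulin binds the same region of type I collagen as lumican and takes part in collagen cross-linking. FMOD ranged from 126 to 425 FPKM with a median of 303 in diabetic wounds and was 334, 203, 136 and 157 FPKM in non-diabetic wounds. Diabetic replicates 4, 5 and 7 were above every non-diabetic wound, while diabetic replicate 2 was below every one. The log2 fold change of 0.47 (SE 0.36, 95% interval -0.31 to 1.25) had an adjusted p of 0.534 by limma.

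PRELP, a proline- and arginine-rich protein that binds heparan sulfate and is thought to tether basement membranes to collagen, had the widest spread. Its level ranged from 8.21 to 40.4 FPKM with a median of 26.5 in diabetic wounds and was 31.4, 17.9, 6.11 and 7.17 FPKM in non-diabetic wounds, a 6.61-fold range over the 11 wounds. Diabetic replicates 1 and 2 and non-diabetic replicates 3 and 4 lay at 6.11 to 8.90 FPKM, and the other 7 wounds at 17.9 FPKM or more. The log2 fold change was 0.79 (SE 0.55, 95% interval -0.41 to 1.98), the largest estimate of the 9, and its adjusted p was 0.493 by limma.

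Osteomodulin is known mostly from bone, where it regulates fibril shape. OMD ranged from 10.3 to 20.6 FPKM with a median of 14.5 in diabetic wounds and was 16.2, 9.43, 11.03 and 10.8 FPKM in non-diabetic wounds, with diabetic replicates 4 and 5 above all non-diabetic wounds. OMD had a log2 fold change of 0.30 (SE 0.20, 95% interval -0.14 to 0.75) and an adjusted p of 0.477 by limma.

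Osteoglycin, also called mimecan, and epiphycan make up class III. OGN ranged from 56.4 to 178 FPKM with a median of 117 in diabetic wounds and was 187, 112, 82.9 and 83.3 FPKM in non-diabetic wounds, so that 1 non-diabetic wound was above and the diabetic range otherwise enclosed the group. Its log2 fold change was 0.04 (SE 0.31, 95% interval -0.63 to 0.71), with an adjusted p of 0.965 by limma. Epiphycan is a protein of growth plate cartilage. EPYC had 2 reads in diabetic replicate 3 and 0 reads in the other 10 libraries, which is under the limit of 3 reads that a count of 0 allows, so no fold change is given. Expression of EPYC was not detectable at this depth in either group.

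Podocan, a more distant class V member, inhibits smooth muscle cell growth. PODN ranged from 3.41 to 10.9 FPKM with a median of 7.98 in diabetic wounds and was 13.5, 11.6, 7.02 and 6.98 FPKM in non-diabetic wounds. Diabetic replicates 1 and 2 lay below the non-diabetic range and non-diabetic replicates 1 and 2 above the diabetic range. For PODN the log2 fold change was -0.39 (SE 0.33, 95% interval -1.11 to 0.32), with an adjusted p of 0.575 by limma.

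**Figure D2:**
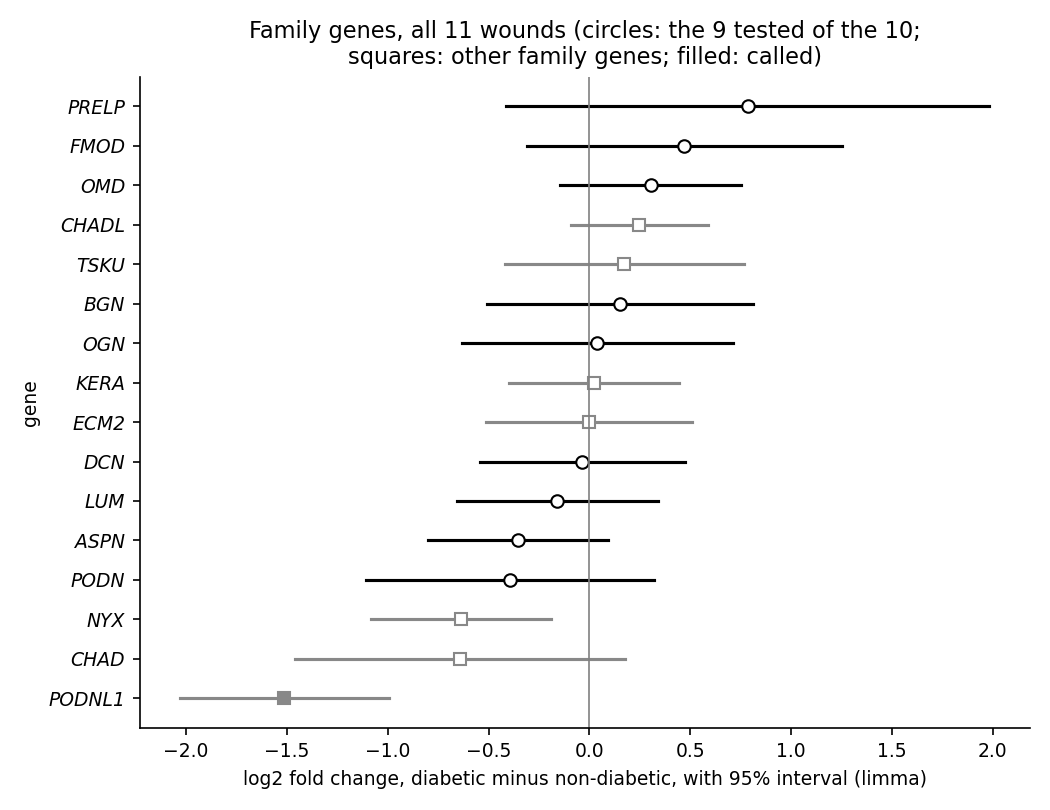
Log2 fold change (diabetic minus non-diabetic, horizontal axis) with its 95% interval from limma over all 11 wounds, for the 9 tested SLRP genes (circles) and the 7 tested other genes of the family (squares). Filled symbols are called. The intervals of all 9 SLRP genes include 0, from PODN at -0.39 to PRELP at 0.79, and PODNL1 at -1.51 is the only filled symbol.

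The wounds of each group differed widely in these genes. The pooled SD between wounds of a group was 0.98 for PRELP, 0.63 for FMOD, 0.58 for PODN and 0.54 for OGN on the log2 scale, against a median of 0.25 over all tested genes. The least variable of the 9, ASPN at 0.35, was still more variable than 72.4% of tested genes, and PRELP more variable than 96.1%. The 9 genes tended to be high or low in the same wound. In diabetic replicates 1 and 2, 0 of 9 genes were above their own mean over the wounds, and in diabetic replicates 4, 5 and 7 and non-diabetic replicate 1, 9 of 9 were. Non-diabetic replicates 3 and 4 had 1 of 9 above it, non-diabetic replicate 2 had 5, diabetic replicate 3 had 6 and diabetic replicate 6 had 4. The summed SLRP level was lowest in diabetic replicates 2 and 1 (3156 and 3865 FPKM), which also had the lowest summed collagen level (18380 and 21660 FPKM, against 33520 to 63360 FPKM in the other 9 wounds). It was highest in non-diabetic replicate 1 and diabetic replicate 4 (7488 and 7191 FPKM), the wounds with the lowest keratinocyte marker sums. Diabetic replicate 2 also had the highest, and non-diabetic replicate 1 the lowest, library size in relation to its reads on genes. The share of the SLRP genes in all FPKM of a library does not depend on that scaling. It too was lowest in diabetic replicate 2 (0.844%) and highest in non-diabetic replicate 1 (1.78%). The part of the keratinocyte or collagen content of a biopsy in the SLRP levels was not tested.

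**Figure D3:**
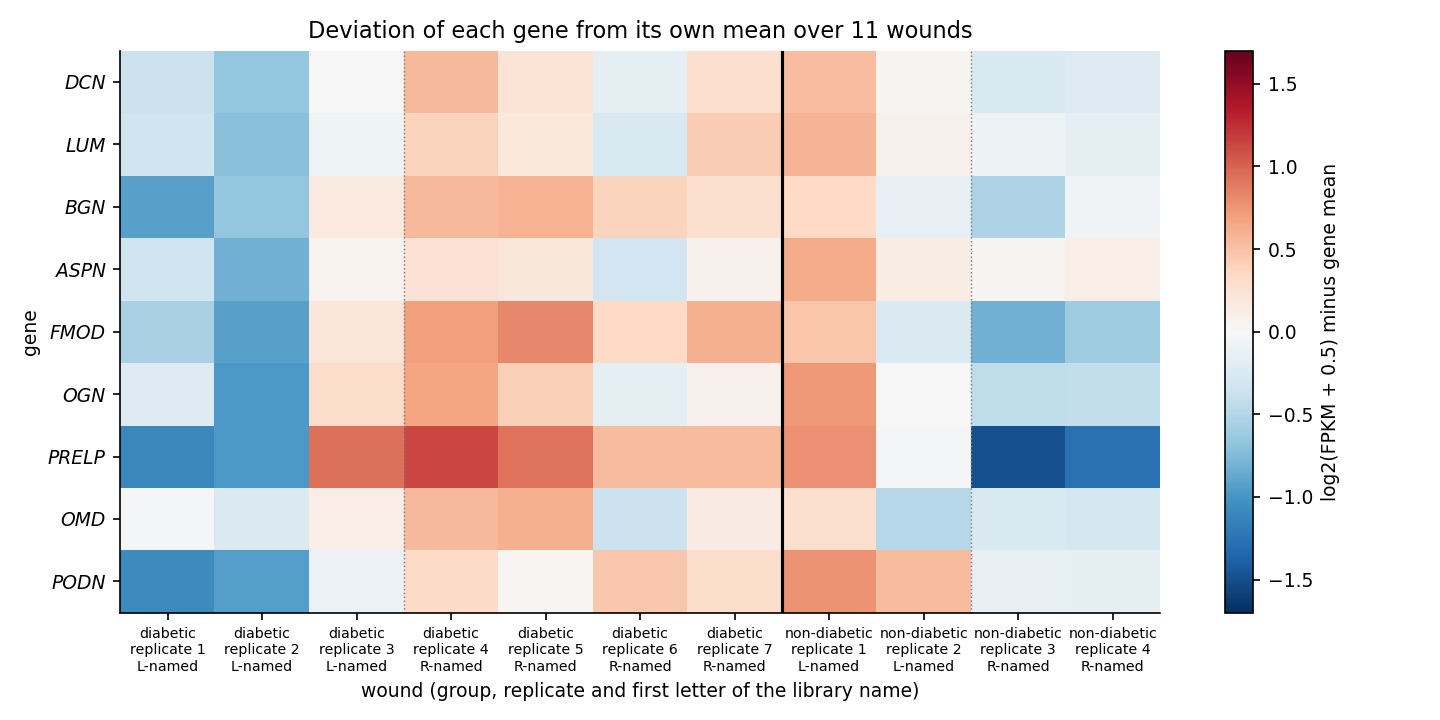
Colours give log2(FPKM + 0.5) minus the mean of that gene over the 11 wounds, with genes in rows by mean level and wounds in columns by group and first letter of the library name. Red is above and blue below the gene's mean. Columns for diabetic replicates 1 and 2 hold 0 of 9 genes above their mean, and those for diabetic replicates 4, 5 and 7 and non-diabetic replicate 1 hold 9 of 9.

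Likeness between genes was described by the root mean square (RMS) of the difference between their log2 values over the 11 wounds, each centred on its own mean. DCN and LUM, neighbours on chromosome 5, were the most alike of the 36 pairs of tested SLRP genes at 0.10, followed by LUM and ASPN at 0.16. ASPN and PRELP were the least alike at 0.85. The measure also grows with a difference in spread, and the SD over the 11 wounds was 0.38 for ASPN and 1.01 for PRELP. The 5 pairs on the same chromosome had a median of 0.33 (range 0.10 to 0.44) and the 31 pairs on different chromosomes a median of 0.38 (range 0.16 to 0.85), and these ranges overlapped. Among all tested genes that varied at least 0.75 times as much, the 3 most like DCN were NRP2 (0.08), EBF4 (0.09) and TTYH2 (0.09), and those most like LUM were EBF4 (0.10), DCN (0.10) and GPR173 (0.12). For BGN they were EMILIN1 (0.13), PLBD2 (0.15) and CRISPLD2 (0.15), and for FMOD LOC100623720 (0.12), FBLN5 (0.12) and COL6A2 (0.13). OGN was closest to COL14A1 (0.12), ANGPTL1 (0.17) and AMOTL2 (0.18), and ASPN to GPR173 (0.10), TSPAN10 (0.12) and PRICKLE1 (0.12). The closest genes to PRELP were WDR86 (0.36), LOC110259819 (0.37) and SFRP2 (0.37), to OMD S1PR2 (0.15), MEIS3 (0.15) and CCDC28B (0.16), and to PODN GAL3ST4 (0.14), THY1 (0.15) and EVC (0.15). All these values share the same 11 libraries and are descriptions without a test.

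The library names begin with the letter L or R in both groups, and the labels do not say what the letters mean. The endings of the names are the same within each group and differ between the groups. The labels do not explain these endings either, so whatever they stand for cannot be told apart from the group. Diabetic replicates 1 to 3 and non-diabetic replicates 1 and 2 were L-named, and diabetic replicates 4 to 7 and non-diabetic replicates 3 and 4 were R-named. Among the 7 diabetic wounds, every R-named wound was above every L-named wound for 3 of 9 genes (BGN, FMOD and PODN), a pattern that 12.3% of tested genes had. Among the 4 non-diabetic wounds, both L-named wounds were above both R-named wounds for 7 of 9 genes (DCN, LUM, FMOD, OGN, ASPN, PRELP and PODN), against 25.2% of tested genes. FMOD and PODN had both patterns, as did 8.22% of tested genes. COL1A1, COL1A2 and COL3A1, collagens that SLRPs bind, and MMP2 had both as well, so the pattern was not particular to SLRP genes. The 9 genes tended to be high or low in the same wound. Counts of these genes by letter, here and below, are therefore not counts of independent genes. COL1A1 was at 4615 to 11506 FPKM in L-named and 16597 to 19026 FPKM in R-named diabetic wounds. In non-diabetic wounds it was 20109 and 13914 FPKM in L-named against 9548.5 and 9737.6 FPKM in R-named ones.

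Within R-named wounds 3 of 9 SLRP genes were called higher in diabetic wounds, against a background of 5.2% of tested genes called higher and 10.1% called in either direction. PRELP was 40.4, 34.7, 26.5 and 26.4 FPKM in the R-named diabetic wounds and 6.11 and 7.17 FPKM in the R-named non-diabetic wounds. The difference was 2.17 on the log2 scale (SE 0.20, 95% interval 1.68 to 2.65), with an adjusted p of 0.00864 by limma. FMOD was 389, 425, 303 and 365 FPKM in the R-named diabetic wounds and 136 and 157 FPKM in the non-diabetic ones. Its difference was 1.33 (SE 0.15), with an adjusted p of 0.0136 by limma. BGN was 911, 944, 815 and 751 FPKM against 435 and 598 FPKM. Its difference was 0.74 (SE 0.16), with an adjusted p of 0.0402 by limma. The diabetic R-named wounds were all above the non-diabetic R-named wounds for 6 of 9 genes (DCN, BGN, FMOD, OGN, PRELP and PODN), against 23.1% of tested genes. With 1 of the 6 wounds left out in turn, PRELP was still called in 4 of 6 fits, FMOD in 3 of 6 and BGN in 0 of 6, and all 3 calls were lost without either non-diabetic wound. Without diabetic replicate 4, PRELP and FMOD were called and BGN was not.

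Within L-named wounds 0 of 9 SLRP genes were called by limma, where 0.0645% of all tested genes were, and 8 of 9 estimates were below 0. At an unadjusted p under 0.05 there were 2 of 9 (PODN and LUM), against 16.5% of tested genes. PRELP was 8.21, 8.90 and 35.0 FPKM in the L-named diabetic and 31.4 and 17.9 FPKM in the L-named non-diabetic wounds, with diabetic replicate 3 the highest of the 5. FMOD was 163, 126 and 278 FPKM against 334 and 203 FPKM, again with overlap. PODN was 3.41, 3.83 and 7.26 FPKM against 13.5 and 11.6 FPKM, without overlap, a difference of -1.35 on the log2 scale with an adjusted p of 0.172 by limma. The median difference over the 9 genes was -0.67 within L-named and 0.51 within R-named wounds, where the medians over all tested genes were 0.02 and 0.00.

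The change of the group difference with the letter was tested as an interaction term in limma, added after the data had been seen. It was called for 3 of 9 SLRP genes, against 6.46% of tested genes, and all 9 estimates were above 0. The R-named minus L-named difference was 1.78 (SE 0.36, adjusted p = 0.0410) for PODN, 1.87 (SE 0.44, adjusted p = 0.0444) for FMOD and 2.93 (SE 0.74, adjusted p = 0.0493) for PRELP, all on the log2 scale by limma. For DCN it was 1.10 (adjusted p = 0.0699 by limma) and for LUM 1.00 (adjusted p = 0.0937 by limma). These calls were not stable. With 1 wound left out, each of the 3 was called without diabetic replicate 3 and lost when any 1 of the other 10 was left out, as well as without diabetic replicate 4 and non-diabetic replicate 1 together. Without diabetic replicate 3, the wound with 1990 FPKM of summed skeletal muscle markers, the term was called for 7 of 9 SLRP genes (BGN, DCN, FMOD, LUM, OGN, PODN and PRELP), against 23.6% of tested genes. Without diabetic replicate 4 and non-diabetic replicate 1 the terms were 1.66 for PODN, 1.48 for FMOD and 2.41 for PRELP. The wounds that stood apart for keratinocyte markers fell 1 in each letter, diabetic replicate 4 among the R-named and non-diabetic replicate 1 among the L-named, and their part in the pattern was not tested beyond these fits.

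**Figure D4:**
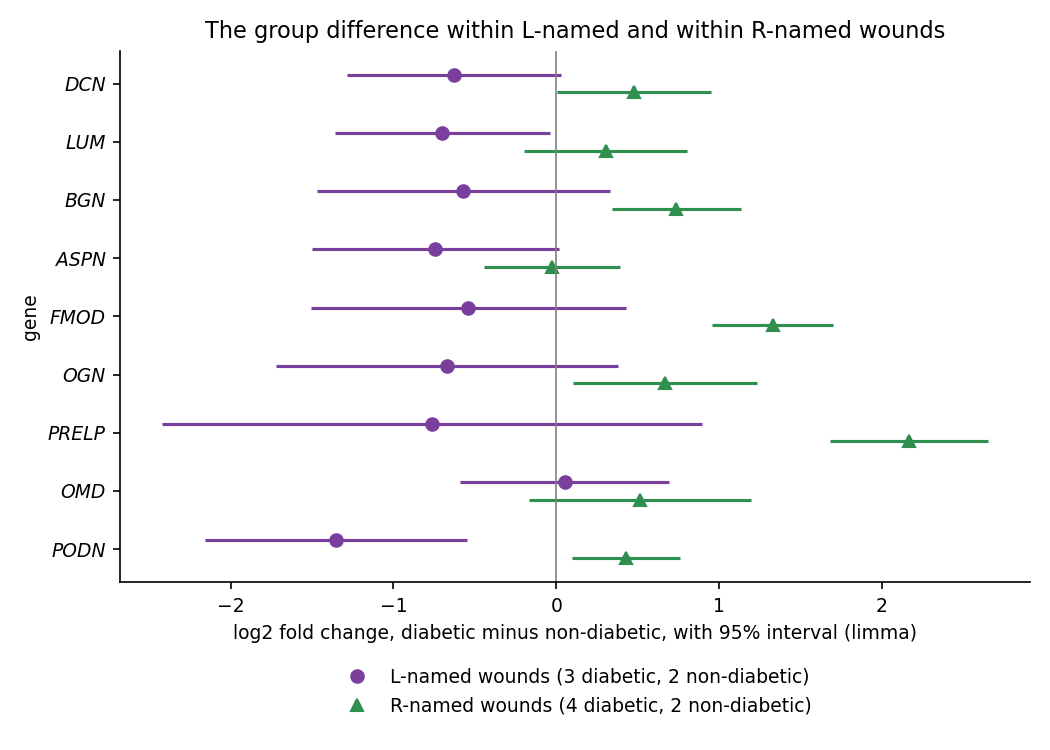
Log2 fold change (diabetic minus non-diabetic, horizontal axis) with its 95% interval from limma, fitted within L-named wounds (circles) and within R-named wounds (triangles) for the 9 tested SLRP genes. Of the circles 8 of 9 lie below 0 and of the triangles 8 of 9 lie above 0, with PRELP at -0.76 and 2.17.

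Ratios of 2 genes within a library do not depend on the scaling between libraries. The FMOD to LUM ratio, which compares 2 proteins that share a binding region on collagen, was 0.119, 0.119, 0.169, 0.172, 0.217, 0.209 and 0.155 in diabetic replicates 1 to 7, and 0.129, 0.111, 0.0826 and 0.101 in non-diabetic replicates 1 to 4. Of the diabetic wounds 5 of 7 were above every non-diabetic wound, and diabetic replicates 1 and 2 were below non-diabetic replicate 1. The means were 0.166 ± 0.0386 (SD, n = 7) and 0.106 ± 0.0193 (SD, n = 4), and the difference was 0.63 on the log2 scale. The two-sided exact permutation p was 0.0212, or 0.0636 after Benjamini-Hochberg adjustment over the 3 ratios compared, so the difference did not pass. It was 0.16 within L-named and 1.03 within R-named wounds, where exact permutation p-values were 0.8 and 0.0667, the latter the smallest that 4 against 2 wounds allow. Without diabetic replicate 1 or without diabetic replicate 2 the adjusted exact p was 0.0429.

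The BGN to DCN ratio averaged 0.370 ± 0.0858 (SD, n = 7) in diabetic and 0.320 ± 0.0445 (SD, n = 4) in non-diabetic wounds. It ranged from 0.233 in diabetic replicate 1 to 0.501 in diabetic replicate 6, and the non-diabetic wounds at 0.304, 0.300, 0.288 and 0.386 lay inside that range. The difference was 0.18 on the log2 scale, with a two-sided exact permutation p of 0.373 and an adjusted p of 0.559, and it was 0.06 within L-named and 0.26 within R-named wounds. The DCN to COL1A1 ratio, of a fibril-binding protein to a main fibril chain, averaged 0.164 ± 0.0609 (SD, n = 7) and 0.146 ± 0.0155 (SD, n = 4). Diabetic replicates 1 and 2 had the highest values, 0.246 and 0.250, and diabetic replicates 5 and 6 the lowest, 0.112 and 0.0979, with the non-diabetic wounds between 0.130 and 0.159. The difference of 0.10 on the log2 scale had an exact permutation p of 0.742, and it was 0.69 within L-named and -0.37 within R-named wounds.

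**Figure D5:**
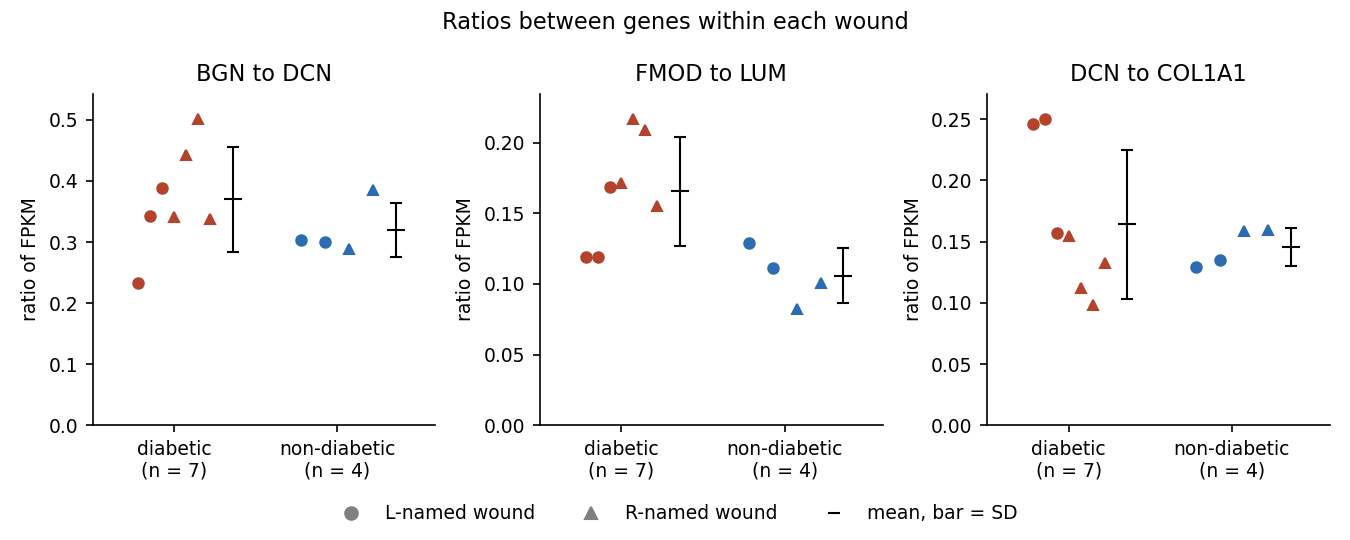
Ratios of FPKM values within each wound (vertical axes, linear from 0) for BGN to DCN, FMOD to LUM and DCN to COL1A1, with circles for L-named and triangles for R-named libraries and the mean and SD of each group beside them. Of 7 diabetic wounds 5 have an FMOD to LUM ratio above all 4 non-diabetic wounds. The groups overlap in all 3 panels.

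Of the 8 other genes of the leucine-rich repeat family that were listed, 7 passed the filter, 1 was called lower and 0 higher (1.66% and 1.35% of all tested genes). The called gene was PODNL1 (chr2:65229987-65235319), the closest relative of podocan. It was 4.25, 4.44, 9.16, 9.98, 8.43, 6.68 and 6.89 FPKM in diabetic replicates 1 to 7 and 23.6, 24.7, 14.96 and 19.8 FPKM in non-diabetic replicates 1 to 4. Every diabetic wound was below every non-diabetic wound. The means were 7.12 ± 2.23 FPKM (SD, n = 7) in the diabetic and 20.7 ± 4.38 (SD, n = 4) in the non-diabetic group. The log2 fold change was -1.51 (SE 0.24, 95% interval -2.03 to -0.99), with an adjusted p of 0.00555 by limma and an exact permutation p of 0.00303, the smallest that 330 splits of the wounds allow. It was -2.01 within L-named and -1.08 within R-named wounds (adjusted p = 0.119 and 0.0288 by limma), and the call was kept in 23 of 25 alternatives.

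NYX, which encodes the retinal protein nyctalopin, also had groups that did not overlap, at 0.839, 0.585, 0.919, 1.90, 1.32, 1.18 and 1.75 FPKM in diabetic replicates 1 to 7 and 2.35, 1.95, 2.11 and 1.91 FPKM in non-diabetic replicates 1 to 4. These levels rest on 68 to 194 reads, and the log2 fold change of -0.64 (SE 0.20, 95% interval -1.08 to -0.19) had an adjusted p of 0.116 by limma. The other family genes had overlapping groups. CHAD, chondroadherin of cartilage, had a log2 fold change of -0.64 (SE 0.37, 95% interval -1.46 to 0.18), with an adjusted p of 0.401 by limma. For TSKU, a secreted inhibitor of several signalling ligands, the change was 0.17 (SE 0.27, 95% interval -0.42 to 0.77), with an adjusted p of 0.794 by limma. CHADL gave 0.25, KERA 0.02 and ECM2 -0.00, with adjusted p-values of 0.436, 0.968 and 0.999 by limma. ECM2, next to ASPN on chromosome 3, was the most abundant of them at 67.3 ± 18.3 FPKM (SD, n = 7) in the diabetic and 67.1 ± 20.4 (SD, n = 4) in the non-diabetic group. KERA, the cornea protein keratocan that lies between LUM and EPYC, was at 0.685 to 1.82 FPKM over the 11 wounds. OPTC, the eye protein opticin, had 0 to 6 reads and was not tested. In the interaction with the library letter TSKU (1.40, adjusted p = 0.0418) and CHAD (1.95, adjusted p = 0.0489) were also called by limma, and both calls were lost without any wound other than diabetic replicate 3.

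The enzymes that build the side chains of SLRPs showed no called gene. Of 27 listed genes for chondroitin and dermatan sulfate synthesis 26 were found and tested, and 0 were called in either direction (3% of all tested genes). Their median log2 fold change was -0.16 and 6 of 26 were above 0, against 7302 of 13956 tested genes above 0 and a median of 0.01. The most abundant were CHPF, which helps to polymerise the chondroitin chain, at 30.0 ± 9.99 FPKM (SD, n = 7) in the diabetic and 38.0 ± 13.8 (SD, n = 4) in the non-diabetic group (-0.35 on the log2 scale, adjusted p = 0.5679 by limma), and B4GALT7, which adds the first galactose of the linker (-0.13, adjusted p = 0.734 by limma). Of 9 keratan sulfate genes 7 were found and 6 tested, 0 were called (3% of all tested genes), and the median was -0.18. B4GALT4 stood at 26.0 ± 5.54 FPKM (SD, n = 7) in the diabetic and 33.6 ± 4.26 (SD, n = 4) in the non-diabetic group (-0.38, adjusted p = 0.202 by limma) and B4GALT1 at -0.16 (adjusted p = 0.475 by limma).

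Of the collagens that SLRPs bind, 0 of 11 tested genes were called (3% of all tested genes), with a median log2 fold change of -0.13. COL3A1 averaged 12614 ± 3949 FPKM (SD, n = 7) in the diabetic and 14812 ± 4212 (SD, n = 4) in the non-diabetic group, COL1A1 13069 ± 5867 FPKM (SD, n = 7) in the diabetic and 13327 ± 4949.9 (SD, n = 4) in the non-diabetic group and COL1A2 10302 ± 3398 FPKM (SD, n = 7) in the diabetic and 12468 ± 4135 (SD, n = 4) in the non-diabetic group. Their log2 fold changes were -0.26, -0.13 and -0.31, with adjusted p-values of 0.674, 0.906 and 0.653 by limma. Over the alternatives these changes ran from -1.02 to 0.38, -1.31 to 0.85 and -1.14 to 0.39, and each highest value was that within R-named wounds. Among the 13 tested genes for proteoglycan cleavage and processing 0 were called (3% of all tested genes) and the median was -0.16. MMP2, a gelatinase, and HTRA1, a serine protease that cuts decorin and biglycan, were the most abundant, with log2 fold changes of -0.16 and -0.14 and adjusted p-values of 0.890 and 0.861 by limma.

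Of 18 tested genes for growth factors and receptors that SLRPs bind, 2 rose in diabetic wounds and 0 fell (1.35% and 1.66% of all tested genes), and the median was -0.03. WISP1, also called CCN4, a secreted matricellular factor that binds decorin and biglycan, was 21.9, 27.2, 31.4, 27.6, 40.2, 27.2 and 28.3 FPKM in diabetic replicates 1 to 7 and 20.5, 16.5, 11.8 and 20.0 FPKM in non-diabetic replicates 1 to 4. All 7 diabetic wounds were above all 4 non-diabetic wounds. WISP1 had a log2 fold change of 0.75 (SE 0.17, 95% interval 0.37 to 1.13) and an adjusted p of 0.0379 by limma, and the call was kept in 10 of 25 alternatives. CD14, a co-receptor for biglycan with Toll-like receptors and a macrophage marker, averaged 41.4 ± 9.98 FPKM (SD, n = 7) in the diabetic and 23.7 ± 3.40 (SD, n = 4) in the non-diabetic group, without overlap. Its log2 fold change was 0.76 (SE 0.18, 95% interval 0.37 to 1.16), with an adjusted p of 0.0390 by limma, and the call was kept in 12 of 25 alternatives. The macrophage list, which also holds CD14, had 3 of 10 genes called higher (MARCO at 1.80, ITGAM at 1.22 and CD14) and 10 of 10 above 0. The authors had already named these 3 genes among those that differ in these wounds, and the list was made with earlier results known. This count is therefore not independent of those results. The summed level of the macrophage list was 734 to 1688 FPKM in diabetic and 471 to 888 FPKM in non-diabetic wounds, and its part in the level of CD14 was not tested. The abundant members CTGF (0.58, adjusted p = 0.718 by limma) and LRP1 (-0.04, adjusted p = 0.962 by limma) were not called.

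Among other proteoglycan core proteins outside the family, 1 of 19 tested genes was called higher and 3 of 19 lower (1.35% and 1.66% of all tested genes), with a median of -0.02. This list was made with earlier results of these data known, and the authors had named ACAN as lower. ACAN, which encodes aggrecan of cartilage, was 0.0919, 0.0830, 0.189, 0.0467, 0.162, 0.580 and 0.0493 FPKM in diabetic replicates 1 to 7 and 4.30, 1.67, 1.97 and 0.935 FPKM in non-diabetic replicates 1 to 4, without overlap and on 12 to 1163 reads. The change on the log2(FPKM + 0.5) scale, which understates that of such a low gene, was -1.91 (SE 0.29, 95% interval -2.55 to -1.28), with an adjusted p of 0.00479 by limma, and the call was kept in 22 of 24 alternatives. GPC6, a membrane-anchored heparan sulfate proteoglycan, fell by 0.92 on the log2 scale (adjusted p = 0.0417 by limma), and SPOCK1, a testican, fell by 0.76 (adjusted p = 0.0301 by limma). SPOCK2, another testican, was higher at 5.75 ± 1.11 FPKM (SD, n = 7) in the diabetic and 3.29 ± 0.420 (SD, n = 4) in the non-diabetic group (0.71, adjusted p = 0.0217 by limma). The calls were kept in 10 of 25, 14 of 25 and 19 of 25 alternatives for GPC6, SPOCK1 and SPOCK2. SDC2 and SRGN, the most abundant of the list, had changes of -0.23 (adjusted p = 0.528 by limma) and 0.62 (adjusted p = 0.0645 by limma).

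Marker lists of cell types that could contribute SLRP transcripts were counted in the same comparison, in which 1.35% of all tested genes were called higher and 1.66% lower. The lists were made with earlier results of these data known, and the authors had named ACAN, COL9A2 and LPL as lower. The counts are therefore not independent of those results. Fibroblast markers had 0 of 12 called and a median log2 fold change of -0.25, and myofibroblast and smooth muscle markers 0 of 6 called, among them POSTN at -1.18 (adjusted p = 0.0698 by limma) and TAGLN at 0.20 (adjusted p = 0.717 by limma). In the chondrocyte and tendon list 2 of 7 tested genes were lower, ACAN and COL9A2, a cartilage collagen chain that averaged 1.09 ± 0.252 FPKM (SD, n = 7) in the diabetic and 47.1 ± 8.62 (SD, n = 4) in the non-diabetic group (log2 fold change -4.91, adjusted p = 1.40e-08 by limma, call kept in 25 of 25 alternatives). Its summed level was 26.8 to 150 FPKM in diabetic and 88.5 to 234 FPKM in non-diabetic wounds, and COMP was at 0 in 5 wounds. Adipocyte markers had 2 of 7 lower, LPL at -1.24 (adjusted p = 0.00229 by limma) and LEP at -1.41 (adjusted p = 0.0126 by limma). Of the 7 adipocyte estimates 1 was above 0, with a median of -1.01. FABP4, a fatty acid carrier of the same list, was 0.92 (adjusted p = 0.0607 by limma), and the summed adipocyte level was 297 to 875 FPKM in diabetic and 323 to 525 FPKM in non-diabetic wounds. Keratinocyte markers had 0 of 14 called, endothelial markers 0 of 8, Schwann cell and nerve markers 0 of 4 and skeletal muscle markers 0 of 2 tested. Of the keratinocyte estimates 13 of 14 were above 0, with a median of 0.40, and of the endothelial ones 4 of 8, with a median of 0.00. All 4 Schwann cell and nerve estimates (median 0.32) and both muscle estimates (median 1.10) were above 0.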

How the data were processed

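RNA from 11 full-thickness wounds of 2 Yucatan minipigs (7 diabetic and 4 non-diabetic, day 10) was sequenced as polyA libraries, 1 per wound. The authors processed reads with fastp, HISAT2 2.2.1, StringTie 2.2.3 and featureCounts 2.0.6 on Sscrofa11.1, and deposited FPKM values for 30376 genes. The annotation release and the FPKM formula are not given in the sources used here. Strandedness is not given there either, so overlapping antisense reads cannot be told apart. FPKM multiplied by gene length gave whole multiples of 1 step per library for 100% of values within 0.05 reads, from which reads were recovered (28314785 to 40168372 per library).

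The 13956 genes at or above 0.5 FPKM in 4 or more libraries were tested by limma 3.58.1 on log2(FPKM + 0.5) (R 4.3.3, lmFit, eBayes with trend), without covariates and with Benjamini-Hochberg adjustment. A fold change on this scale understates that of low genes. Single genes and ratios were compared by two-sided exact permutation over 330 splits (smallest p 0.00303). Since the values are FPKM, limma is the main test and the recovered reads enter an alternative. No 2 libraries shared identical values. Same-numbered wounds of the 2 groups did not deviate together (correlations -0.27, 0.22, 0.07 and -0.48 across genes), so replicate numbers were not taken as pairs.

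The genes named are all 10 SLRP genes, 8 other family genes, the called genes and the 2 most abundant genes of each list (at most 6 a list by adjusted p), and COL1A1, COL1A2 and COL3A1. ADIPOQ and other abundant marker genes of that rule are counted in the lists. COMP, MYH1 and MYH2 were named after their values were seen. The genes and lists were chosen with earlier results of these data known. The symbols CHPF2, CHST5, CHST6, COL6A1, KRT14, KRT16 and MB were not matched, and CCN2 and CCN4 were matched as CTGF and WISP1. Alternatives changed the pseudocount, filter, scaling, trend, library weights, replicate block, letter covariate, wounds included, threshold and use of voom on recovered reads. Promoter windows were the 250 bases before the annotated start in the RefSeq annotation of Sscrofa11.1, and that of DCN is not reported here. Python 3.11.15, numpy 2.4.6, pandas 2.3.3 and matplotlib 3.10.9 were used.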

Additional observations from a re-analysis of the deposited data

Results flagged for a closer look

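A sample far from the others of its group was found in 3 of 38 groups of wounds examined (16 family genes and 3 ratios in each of 2 groups), and chance gives about 1 in 20. Non-diabetic replicate 1 was high for ASPN, at 915 FPKM against 609 to 648 in the other 3, and for CHADL, at 0.766 FPKM against 0.394 to 0.439. It is also a library that stood apart in keratinocyte markers. Non-diabetic replicate 4 was high for the BGN to DCN ratio, at 0.386 against 0.288 to 0.304.

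The difference between diabetic and non-diabetic wounds changed with the first letter of the library name for 5 of 16 family genes by limma's interaction term, against 6.46% of tested genes. Each of the 5 calls was lost in 10 of 11 fits with 1 wound left out. The R-named minus L-named difference was 2.93 for PRELP, 1.95 for CHAD, 1.87 for FMOD, 1.78 for PODN and 1.40 for TSKU on the log2 scale. What the letters stand for was not given in the labels, and its part in the difference was not tested.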

How the results depend on the processing

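Each group is 1 animal and the p-values cover the spread between its wounds, so a difference between the animals that is not diabetes cannot be told apart. The 95% intervals of the 9 tested SLRP genes reach from 0.45 (ASPN) to 1.20 (PRELP) on either side of the estimate on the log2 scale, before any adjustment over genes. EPYC and OPTC had too few reads to be tested.

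The count of SLRP genes called was 0 in all 11 wounds and 0 under every alternative run apart from R-named wounds, where it was 3. The count of all genes called was 419 with all wounds and 209 to 482 with 1 wound left out (279 without diabetic replicate 3, and 209, 273, 220 and 255 without non-diabetic replicates 1 to 4). It was 822 with library weights, 16 with the replicate block, 9 in L-named wounds, 1415 in R-named wounds and 212 without diabetic replicate 4 and non-diabetic replicate 1. The block called 0 SLRP genes, and replicate numbers do not pair the wounds. The FMOD to LUM difference was 0.52 to 0.73 with 1 wound left out, and passed only without diabetic replicate 1 or 2 (0.70 in both cases). That of DCN to COL1A1 was -0.0156 to 0.21, and -0.37 in R-named wounds. Exact tests of ratios within a letter or block cannot reach 0.05.

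Over 53 genes and their alternatives, 1126 of 1322 estimates kept sign and call, 108 changed sign, 73 lost a call and 15 gained one. Where calls were lost by leaving out a wound, CD14 lost its call for 9 wounds, WISP1 for 9, GPC6 for 9, SPOCK1 for 5 and SPOCK2 for 3. PODNL1, ACAN, MARCO, ITGAM and LPL lost their calls with the replicate block and in L-named wounds, and PODNL1 also in 5 of 6 fits of R-named wounds with 1 wound left out. Signs turned as follows, and the cause was not tested. In R-named wounds the log2 fold change was 0.48 for DCN, 0.30 for LUM, 0.43 for PODN, 0.26 for CHAD, 0.37 for ECM2, 0.32 for CHPF, 0.12 for B4GALT7, 0.85 for COL1A1, 0.39 for COL1A2, 0.38 for COL3A1, 0.82 for MMP2, 0.58 for HTRA1, 0.59 for LRP1, 0.13 for SDC2, 0.0553 for CLDN5, -0.18 for PECAM1, -0.11 for KRT1 and -1.26 for KRT5. In L-named wounds it was -0.57 for BGN, -0.54 for FMOD, -0.76 for PRELP, -0.67 for OGN, -0.0593 for CHADL, -0.50 for KERA, -0.59 for TSKU, -0.68 for CTGF, -0.0566 for C1QB, -0.20 for TAGLN, -1.08 for THBS4 and -0.37 for PMP22. Library weights gave 0.14 for DCN, 0.0197 for LUM, 0.16 for ECM2, 0.21 for COL1A1, 0.19 for MMP2, 0.12 for HTRA1, 0.20 for LRP1 and -0.0677 for PECAM1. The replicate block gave -0.12 for BGN, -0.0286 for OGN, -0.0822 for KERA, -0.10 for TSKU, 0.0314 for ECM2, -0.10 for THBS4, -0.16 for PMP22 and -1.38 for KRT1. Rescaling each library to the same sum gave -0.0357 for OGN, -0.0282 for KERA, -0.0536 for PMP22 and -0.0524 for PECAM1, and quantile normalization -0.10 for OGN, -0.0432 for PMP22 and -0.098 for PECAM1. Without diabetic replicate 4 and non-diabetic replicate 1 the values were 0.0371 for DCN, 0.0947 for ECM2, 0.044 for LRP1 and 0.0232 for CLDN5, and ECM2 was 0.00299 with voom and 0.00116 with the letter as covariate. With 1 wound left out the range was -0.13 to 0.13 for DCN, -0.0963 to 0.29 for OGN, -0.11 to 0.19 for ECM2, -0.15 to 0.16 for KERA, -0.27 to 0.0872 for COL1A1, -0.35 to 0.0983 for MMP2, -0.28 to 0.081 for HTRA1, -0.15 to 0.13 for LRP1, -0.21 to 0.00192 for B4GALT7, -0.0958 to 0.0689 for CLDN5, -0.0569 to 0.11 for PECAM1, -0.0421 to 0.13 for PMP22, -0.0306 to 0.76 for THBS4, -0.25 to 1.98 for KRT1 and -0.38 to 1.08 for KRT5. Within R-named wounds ASPN was at -0.0257 and ran from -0.0929 to 0.0975 with 1 wound left out. The letter interaction, added after the data were seen, turned sign for OMD (-0.0181) without diabetic replicate 4 and non-diabetic replicate 1.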
